A study of Mus musculus with 6 samples.

Results

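The genes described here are 40 genes of mitosis, chosen by symbol and found in the deposited count table by their Ensembl identifiers. All 40 were present among the 52325 genes of the table, and all 40 passed the filter on low counts that left 20684 genes for testing. RNA was taken from cells of breast tumours that arose in mice of strain C57BL/6. These mice carried C3-T, a name the labels do not spell out, and Elf5-GFP, a green fluorescent reporter for the ETS transcription factor Elf5. All 6 libraries share both, and the age of the mice is not given. Digested tumours were stained for CD45, CD31 and TER119 to enrich tumour cells, and GFP then divided those into Elf5-positive (Elf5+, 2 libraries) and Elf5-negative (Elf5-, 4 libraries) cells. The titles hold 1 of 2 numbers and the code T1 or T2. By these, pair 1 is made up of Elf5-positive library 1 with Elf5-negative library 2, and pair 2 of Elf5-positive library 2 with Elf5-negative library 4, each pair with its own number and all with T2. Elf5-negative libraries 1 and 3 carry T1, with the number of pair 1 and of pair 2, in that order. The labels define neither the number nor the code and do not say that libraries are separate animals. A p-value here therefore reflects only how these libraries vary, and that variation may be technical.

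Mitosis genes are transcribed in waves. In resting cells and early in the cycle the DREAM complex holds many of them off, and later in the cycle the same MuvB core, joined by B-Myb (encoded by Mybl2) and FoxM1, switches them on. MuvB binds a short element called the cell cycle genes homology region (CHR), and the factor NF-Y binds CCAAT boxes that often lie nearby. In a tumour the summed RNA of these genes is widely read as a sign of how many cells are cycling, but in sorted bulk RNA fewer cycling cells and less of this RNA per cell cannot be told apart.

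The promoters of the 40 genes are described first, though they were searched after the fold changes had been computed. RefSeq sequences (build GRCm38.p6) running from 250 bases before to 50 bases after the annotated start were held for 33 of the 40 genes by symbol; Ccna2, Tpx2, Incenp, Kif20a, Foxm1, Smc4 and Aurkb were not matched. For a gene with several starts the first listed was used. The CHR letters TTTGAA occurred on either strand in 24 of 33 promoters (72.7%), against 18.1% of all 27025 promoters in the table and 13.0% of the 13243 promoters whose genes were tested here. The CCAAT box, letters CCAAT on either strand, occurred in 24 of 33 (72.7%), against 37.9% and 38.3%. It also occurred in 31 of 42 promoters of further mitosis genes (73.8%) and in 17 of 24 promoters of G1/S and DNA replication genes (70.8%). With TTTAAA counted as a CHR as well, 23 of 33 (69.7%) held a CHR and a CCAAT box, against 10.9% of all promoters and 8.25% of the promoters of tested genes. The E2F letters TTCCCGC, also held within the longer form TTTCCCGC that was searched, occurred in 0 of 33, against 4.66% of all promoters and 6 of 42 (14.3%) of the further mitosis genes. Those 42 held a CHR and a CCAAT box together in 21 (50.0%). Of the 24 G1/S promoters, 11 (45.8%) held TTCCCGC and 6 (25.0%) held both a CHR and a CCAAT box. These shares are descriptions of letters in a window, not of bound sites. For E2F only TTCCCGC and TTTCCCGC were searched, so the 0 of 33 does not cover other spellings of E2F sites.

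The following stretches are the 120 bases just before the annotated start, 5′ to 3′ on the gene's strand, with every CHR (TTTGAA or TTTAAA) and CCAAT box, on either strand, in capitals. The first 7, all with a CHR inside the printed stretch, show how CHR and CCAAT letters are arranged in genes of different roles. Mybl2 is shown because its window holds neither.
Cdk1 (chr10:69352913-69353032, minus strand): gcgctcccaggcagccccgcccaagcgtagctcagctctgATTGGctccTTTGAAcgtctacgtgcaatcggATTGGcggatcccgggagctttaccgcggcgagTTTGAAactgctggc
Cdc20 (chr4:118437344-118437463, minus strand): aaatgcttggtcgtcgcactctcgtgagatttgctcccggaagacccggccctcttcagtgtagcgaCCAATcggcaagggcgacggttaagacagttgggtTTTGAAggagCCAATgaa
Espl1 (chr15:102296173-102296292, plus strand): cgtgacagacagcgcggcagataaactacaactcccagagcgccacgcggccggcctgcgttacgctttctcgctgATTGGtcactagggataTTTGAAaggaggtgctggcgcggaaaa
Plk1 (chr7:122159315-122159434, plus strand): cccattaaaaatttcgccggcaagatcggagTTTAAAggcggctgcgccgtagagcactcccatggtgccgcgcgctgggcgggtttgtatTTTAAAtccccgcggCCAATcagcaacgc
Kif11 (chr19:37376262-37376381, plus strand): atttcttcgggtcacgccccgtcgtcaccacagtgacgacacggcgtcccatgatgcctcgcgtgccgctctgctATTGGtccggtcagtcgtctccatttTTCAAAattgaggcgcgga
Top2a (chr11:99024190-99024309, minus strand): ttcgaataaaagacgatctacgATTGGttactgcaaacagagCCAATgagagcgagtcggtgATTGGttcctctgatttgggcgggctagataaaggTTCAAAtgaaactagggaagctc
Mki67 (chr7:135716380-135716499, minus strand): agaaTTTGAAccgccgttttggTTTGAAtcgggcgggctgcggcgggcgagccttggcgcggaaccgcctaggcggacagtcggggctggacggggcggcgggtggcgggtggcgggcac
Mybl2 (chr2:163054515-163054634, plus strand): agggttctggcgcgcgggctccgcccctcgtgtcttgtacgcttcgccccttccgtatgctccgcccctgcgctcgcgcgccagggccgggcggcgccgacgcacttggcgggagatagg
The middle of the CHR nearest the start lay 12, 15, 24, 16 and 20 bases before it in Cdk1, Cdc20, Espl1, Kif11 and Top2a, and 26 bases before it in Plk1. In Mki67 the CHR matches lay farther out, at 113 and 95 bases before the start, and its CCAAT boxes, at 186, 164 and 139 bases, lie beyond the printed stretch. The placement in these 7 genes does not stand for all promoters searched. In Aurka, Cdca8, Bub1b, Ttk, Cenpe, Ndc80, Kif4, Hmmr, Kif23 and Anln every CHR match lay after the start, by 6 to 44 bases. The 23 genes with a CHR and a CCAAT box had a median log2 fold change between the sorts of 0.70 (range 0.17 to 1.03). The other 10 had a median of 0.56 (range 0.36 to 0.72), and the 5 with neither, Pttg1, Mad2l1, Nuf2, Nusap1 and Mybl2, one of 0.60. These ranges overlap, and the medians are given as a description with no test.

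**Figure D1:**
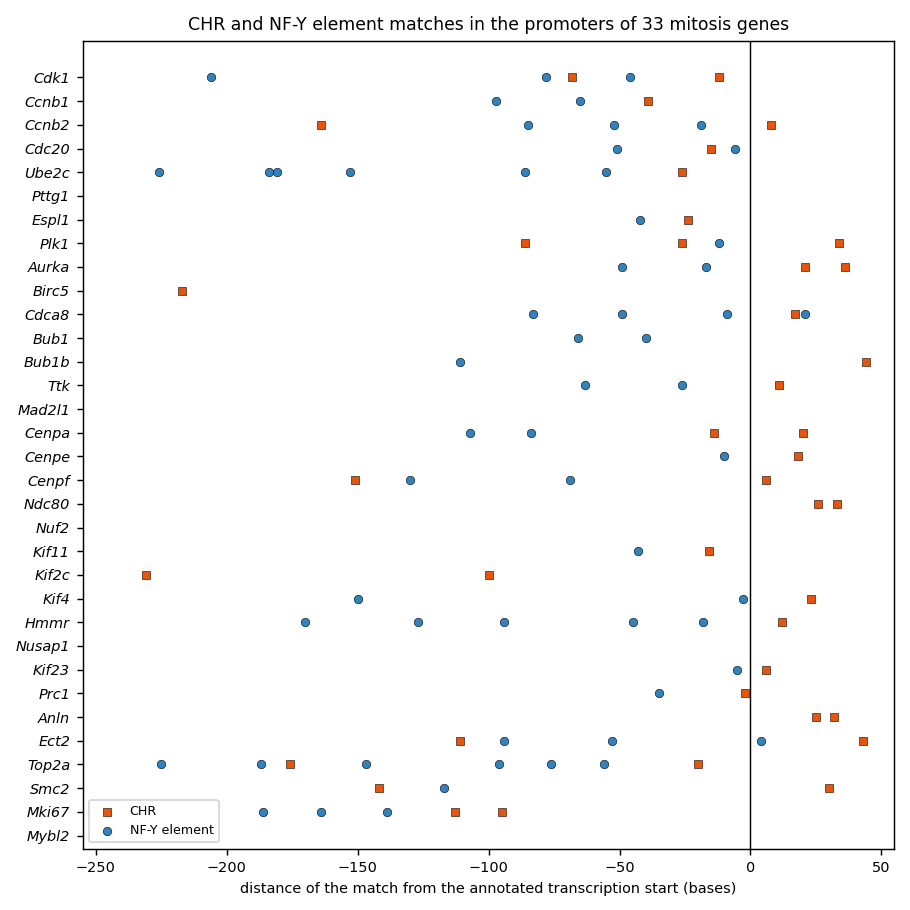
Positions of CHR matches (orange squares, TTTGAA or TTTAAA) and NF-Y elements, that is CCAAT boxes (blue circles), on either strand, from 250 bases before to 50 bases after the annotated start of 33 mitosis genes; the x axis is the distance of the middle of the match from the start in bases. A CHR and a CCAAT box were present together in 23 of the 33 rows, and the rows of Pttg1, Mad2l1, Nuf2, Nusap1 and Mybl2 are empty.

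Before the members are compared, a few facts of the libraries bear on them. Elf5-negative library 4 was the shallowest at 9106660 counts, and the other 5 held at least 32602477. No mitosis gene had fewer than 260 counts in any library. How counting error compares with the spread between libraries was not tested for each gene. Elf5 itself, by whose reporter the cells were sorted, stood at 77.7 and 137.0 CPM (counts scaled to a common library size with TMM factors) in the Elf5-positive libraries and at 6.93 to 24.7 CPM in the Elf5-negative ones. Epithelial markers were present in all 6 libraries. Their summed level over 18 genes was 8622 and 6305 CPM in the Elf5-positive libraries and 2154 to 3694 CPM in the Elf5-negative ones, and 12 of the 18 rose (edgeR adjusted p below 0.05). Fibroblast markers summed to 1590 and 1163 CPM against 19790 to 54350 CPM, and 12 of 14 fell, as did 7 of 10 pericyte and smooth muscle markers (150.0 and 127.2 CPM against 738.7 to 1868 CPM) and 3 of 10 endothelial markers (46.5 and 16.4 CPM against 64.5 to 150.4 CPM). None of 14 leukocyte markers, 8 skeletal muscle markers or the 4 tested of 6 erythroid markers passed; their sums were 90.3 and 50.0, 14.4 and 8.26, and 2.38 and 8.42 CPM in the Elf5-positive libraries, against ranges of 56.7 to 165.4, 5.35 to 222.8 and 1.57 to 11.2 CPM. Of the skeletal muscle sums, those of Elf5-negative libraries 1 and 2 were highest, at 222.8 and 44.9 CPM. Only 1 erythroid marker had no count in either Elf5-positive library, and no fibroblast, pericyte, endothelial or leukocyte marker was at 0 in both. The part of these other cells in the results below was not tested.

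In TMM-scaled CPM, RNA of the mitosis genes was more abundant in the Elf5-positive libraries. The 40 genes together summed to 6137 and 7676 CPM in Elf5-positive libraries 1 and 2, and to 4410, 4646, 3821 and 4471 CPM in Elf5-negative libraries 1 to 4. Both Elf5-positive sums lay above all 4 Elf5-negative sums, and the means of 6906 ± 1088 CPM (SD, n = 2) and 4337 ± 358 CPM (SD, n = 4) stood in a ratio of 1.59. As shares of the deposited counts they were 0.604% and 0.800%, against 0.350% to 0.477%. Each of the 40 genes had a log2 fold change above 0 with TMM scaling, where 53.3% of all genes did, and below 0 when the libraries were scaled to the 18 epithelial markers, where 97.5% of all genes did.

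No single mitosis gene passed the test. With edgeR's quasi-likelihood test on all 6 libraries, 0 of 40 had an adjusted p below 0.05, where 0.585% of all genes tested passed as higher and 3.79% as lower. At an unadjusted p below 0.05 there were 23 of 40, all higher, against 5.20% of all genes as higher. The log2 fold changes ran from 0.17 for Smc2 to 1.03 for Cenpf, with a median of 0.65 beside 0.05 for all genes, and their standard errors from 0.19 to 0.51. In 33 of 40 genes the log2 fold change exceeded 0.5, as in 19.2% of all genes. In 21 of 40 both Elf5-positive libraries lay above all 4 Elf5-negative ones, against 10.9% of all genes, and in no mitosis gene did both lie below. Genes measured in the same libraries are not independent, so these shares are descriptions and carry no test. DESeq2 called 4 mitosis genes higher, namely Cdk1, Incenp, Bub1b and Mki67, against 2.11% of all genes, and limma-voom called 0, with 21 at an unadjusted p below 0.05. The direction turned with the scaling. Scaled to the epithelial markers, the median of the 40 genes was -0.88 and that of all genes -1.49, and 16 mitosis genes passed as lower, a share below the 60.6% of all genes that did. With either scaling the members' median lay 0.60 or 0.61 above that of all genes. A change of scaling moves all genes by nearly the same amount, so this gap could hardly change and is no separate result.

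**Figure D2:**
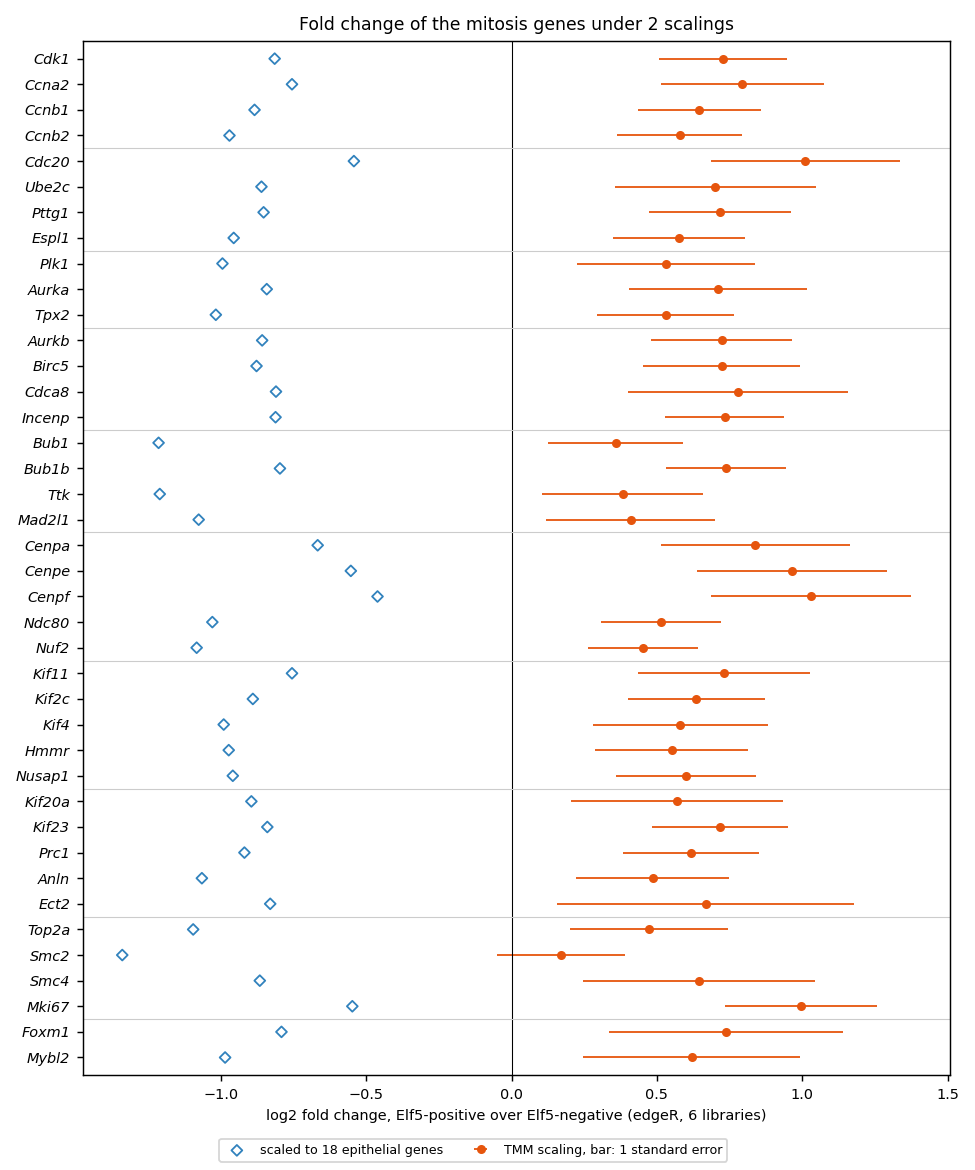
Log2 fold change of each mitosis gene, Elf5-positive over Elf5-negative, from edgeR on 6 libraries, with genes grouped by role between grey lines. Orange points with bars of 1 standard error use TMM scaling and lie at 0.17 to 1.03; blue diamonds use scaling to 18 epithelial markers and lie at -1.34 to -0.46, so the sign depends on the scaling.

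All log2 fold changes, ratios and CPM in the following paragraphs use TMM scaling, and each fold change of the 40 genes has the opposite sign under epithelial scaling. The kinase Cdk1 and its cyclins start mitosis, and all 4 genes separated the sorts. Cdk1 (ENSMUSG00000019942.13, chromosome 10, 69335146 to 69352938, GRCm38) stood at 223.0 and 203.4 CPM in Elf5-positive libraries 1 and 2 and at 113.1, 156.0, 123.7 and 122.1 CPM in Elf5-negative libraries 1 to 4. The groups did not overlap; the log2 fold change was 0.73 (SE 0.22, edgeR adjusted p = 0.122; DESeq2 adjusted p = 0.0410). Cyclin A2, which acts in S phase and early mitosis, is encoded by Ccna2 and stood at 296.7 and 451.9 CPM against 255.4, 214.7, 161.6 and 231.9 CPM, a log2 fold change of 0.79. The mitotic B-type cyclins did not overlap either: Ccnb1 had 132.9 and 176.6 CPM against 97.6, 105.8, 89.9 and 102.2 CPM, and Ccnb2 98.1 and 111.6 CPM against 70.3, 82.1, 57.8 and 70.7 CPM. Ccnb1 and Ccnb2 had log2 fold changes of 0.65 and 0.58. None of these 3 passed (edgeR adjusted p = 0.154 to 0.214).

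The anaphase-promoting complex ends mitosis by marking cyclin B and securin for destruction. Cdc20, its mitotic activator (ENSMUSG00000006398.15, chromosome 4, 118432901 to 118437352), stood at 350.5 and 202.8 CPM against 104.1, 185.9, 148.4 and 110.5 CPM. Both Elf5-positive values were above all others, library 1 by far and library 2 only just above Elf5-negative library 2. Its log2 fold change of 1.01 (SE 0.33, edgeR adjusted p = 0.147) was the second largest among the 40 genes, and 0.56 without Elf5-positive library 1. Ube2c, the ubiquitin-conjugating enzyme of the complex, overlapped between the sorts, with 154.5 and 97.1 CPM against 59.1, 119.2, 70.8 and 60.3 CPM. Pttg1, which encodes securin, had 61.5 and 52.3 CPM against 43.4, 33.4, 34.8 and 26.7 CPM, and Espl1, which encodes the cohesin-cutting protease separase, 87.6 and 93.4 CPM against 51.3, 76.9, 56.3 and 58.3 CPM. Those 2 genes did not overlap, and neither passed in edgeR on all 6 libraries with TMM scaling. The log2 fold changes of Ube2c, Pttg1 and Espl1 were 0.70, 0.72 and 0.58. Per kilobase of annotated exon Cdc20 had the highest mean level of the 40 genes over the 6 libraries, 98.3 CPM per kb, and Cenpf the lowest, 7.11 CPM per kb.

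The Polo and Aurora kinases steer centrosomes and the spindle. Plk1, the Polo kinase, stood at 62.6 and 80.2 CPM against 36.6, 69.1, 37.7 and 54.2 CPM and overlapped, since Elf5-negative library 2 exceeded Elf5-positive library 1. Aurka, the Aurora A kinase, also overlapped through Elf5-negative library 2, with 78.0 and 65.9 CPM against 36.5, 66.9, 36.9 and 35.5 CPM. Tpx2, which activates Aurora A on the spindle, had 183.1 and 168.7 CPM against 117.5, 153.4, 117.2 and 98.9 CPM, with no overlap. Their log2 fold changes were 0.53, 0.71 and 0.53, and none passed (edgeR adjusted p = 0.294 to 0.459).

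The chromosomal passenger complex corrects wrong spindle attachments and has Aurora B as its kinase, with Incenp, survivin (Birc5) and borealin (Cdca8) as partners. Incenp was the most even of the 4, at 135.9 and 138.5 CPM against 82.0, 96.7, 78.2 and 73.3 CPM. Its groups were well apart, and its log2 fold change was 0.73 (SE 0.20, edgeR adjusted p = 0.0972; DESeq2 adjusted p = 0.0250). Aurkb had 79.9 and 73.3 CPM against 54.6, 53.5, 34.7 and 42.8 CPM, and Birc5 127.8 and 79.5 CPM against 75.3, 69.7, 53.3 and 52.7 CPM. Neither overlapped, and neither passed in edgeR on all 6 libraries. Cdca8 had 180.6 and 82.2 CPM against 71.8, 108.2, 74.9 and 51.2 CPM, so Elf5-positive library 2 was below Elf5-negative library 2. The 4 log2 fold changes lay within 0.72 to 0.78, but without Elf5-positive library 1 those of Cdca8 and Birc5 were 0.10 and 0.34.

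The spindle checkpoint delays anaphase until chromosomes are attached, and its genes had the lowest median log2 fold change of the role groups, 0.40. Bub1b, which encodes the checkpoint protein BubR1, stood apart from that, at 142.0 and 161.2 CPM against 87.0, 106.3, 85.6 and 84.5 CPM with no overlap. Its log2 fold change was 0.74 (SE 0.21, edgeR adjusted p = 0.0976; DESeq2 adjusted p = 0.0224). The checkpoint kinases Bub1 and Ttk and the checkpoint effector Mad2l1 all overlapped between the sorts, with log2 fold changes of 0.36, 0.38 and 0.41. Bub1 had 90.1 and 70.9 CPM against 71.0, 70.5, 59.2 and 50.4 CPM, with Elf5-positive library 2 just below Elf5-negative library 1. Mad2l1 had 65.9 and 111.7 CPM against 55.9, 54.6, 76.6 and 80.5 CPM, and Ttk 50.1 and 43.3 CPM against 45.9, 41.1, 26.6 and 29.6 CPM.

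Centromere and kinetochore genes had the highest median of the role groups, 0.84. Cenpa, the histone variant that marks centromeres, stood at 136.8 and 153.6 CPM against 46.0, 107.2, 78.8 and 92.9 CPM with no overlap, a log2 fold change of 0.84. Cenpe, a kinetochore motor, and Cenpf, a large kinetochore protein, had log2 fold changes of 0.96 and 1.03 that rested mainly on Elf5-positive library 2. Cenpe was at 120.1 and 250.7 CPM against 97.0, 88.4, 74.3 and 120.5 CPM, and Cenpf at 106.4 and 225.7 CPM against 65.1, 73.5, 74.8 and 112.5 CPM. In both genes Elf5-positive library 1 lay just below Elf5-negative library 4, so the sorts overlapped. Without Elf5-positive library 2 their log2 fold changes were 0.34 and 0.39. Ndc80 and Nuf2, partners in the complex that grips microtubules, did not overlap and had log2 fold changes of 0.51 and 0.45, at 82.3 and 71.3 CPM against 55.4, 53.3, 60.6 and 45.8 CPM and at 65.4 and 74.6 CPM against 50.3, 54.1, 49.0 and 51.1 CPM.

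Spindle motors and their helpers were mixed. Kif2c, a microtubule-depolymerizing kinesin, and Nusap1, a spindle-binding protein, did not overlap, with 109.1 and 91.8 CPM against 51.4, 74.6, 74.3 and 58.2 CPM and 115.8 and 115.7 CPM against 94.7, 78.7, 75.2 and 56.5 CPM. Kif11, the motor that pushes spindle poles apart, overlapped, with 79.6 and 157.2 CPM against 62.3 to 83.0 CPM. The chromosome-arm kinesin Kif4 (140.0 and 90.1 CPM against 83.9, 91.2, 82.5 and 49.8 CPM) and the spindle factor Hmmr (50.5 and 87.6 CPM against 42.9 to 53.7 CPM) overlapped too. Kif4 was high in Elf5-positive library 1 only and Kif11 and Hmmr in library 2 only. The log2 fold changes were 0.64 for Kif2c, 0.60 for Nusap1, 0.73 for Kif11, 0.58 for Kif4 and 0.55 for Hmmr.

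Genes of cytokinesis, the final splitting of the cell, had log2 fold changes from 0.49 to 0.72. Kif23, a motor of the central spindle, Prc1, which bundles its microtubules, and the cleavage-furrow protein Anln did not overlap. Kif23 was at 159.1 and 187.1 CPM against 80.8 to 120.7 CPM, Prc1 at 178.1 and 255.6 CPM against 126.7 to 159.7 CPM, and Anln at 329.9 and 442.0 CPM against 311.8, 317.0, 213.7 and 260.2 CPM. The kinesin Kif20a and the RhoA activator Ect2 were high in Elf5-positive library 2 (244.6 and 251.7 CPM) but not in library 1 (107.4 and 71.5 CPM). In the Elf5-negative libraries Kif20a ran from 90.0 to 144.5 CPM and Ect2 from 63.9 to 154.1 CPM, so library 1 lay within both ranges. The log2 fold changes were 0.72 for Kif23, 0.62 for Prc1, 0.49 for Anln, 0.57 for Kif20a and 0.67 for Ect2, the last with the largest standard error of the 40 genes, 0.51.

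Among genes of chromosome structure, Mki67, which encodes the proliferation marker Ki-67 that coats mitotic chromosomes, had the smallest adjusted p of the 40 genes. Mki67 (ENSMUSG00000031004.8, chromosome 7, 135689784 to 135716361) stood at 453.1 and 643.8 CPM against 301.5, 265.5, 221.1 and 311.9 CPM, with no overlap. Its log2 fold change was 1.00 (SE 0.26) with an edgeR adjusted p of 0.0808, and 0.00771 with DESeq2. Top2a, the DNA-untangling topoisomerase, overlapped, at 439.5 and 536.0 CPM against 451.9, 354.4, 276.3 and 323.6 CPM. The condensin subunits Smc2 and Smc4, which compact chromosomes, differed little or unevenly. Smc2, with the smallest log2 fold change (0.17, SE 0.22), was at 127.2 and 162.4 CPM against 121.5, 129.8, 147.2 and 116.0 CPM, and Smc4 at 308.8 and 763.3 CPM against 264.4 to 469.5 CPM. On the log2 scale Top2a differed by 0.47 and Smc4 by 0.64 between the sorts, with standard errors of 0.27 and 0.40.

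The transcription factors that act on these promoters overlapped between the sorts as well. Foxm1 stood at 208.7 and 334.9 CPM against 118.9, 188.9, 96.4 and 248.3 CPM, a log2 fold change of 0.74 (SE 0.40). Mybl2 stood at 146.5 and 71.4 CPM against 74.1, 101.8, 59.4 and 48.2 CPM, a log2 fold change of 0.62 (SE 0.37) that was 0.0087 without Elf5-positive library 1. That of Foxm1 was 0.36 without library 2. Each was highest in a different Elf5-positive library, Foxm1 in library 2 and Mybl2 in library 1. Neither passed (edgeR adjusted p = 0.431 and 0.487).

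**Figure D3:**
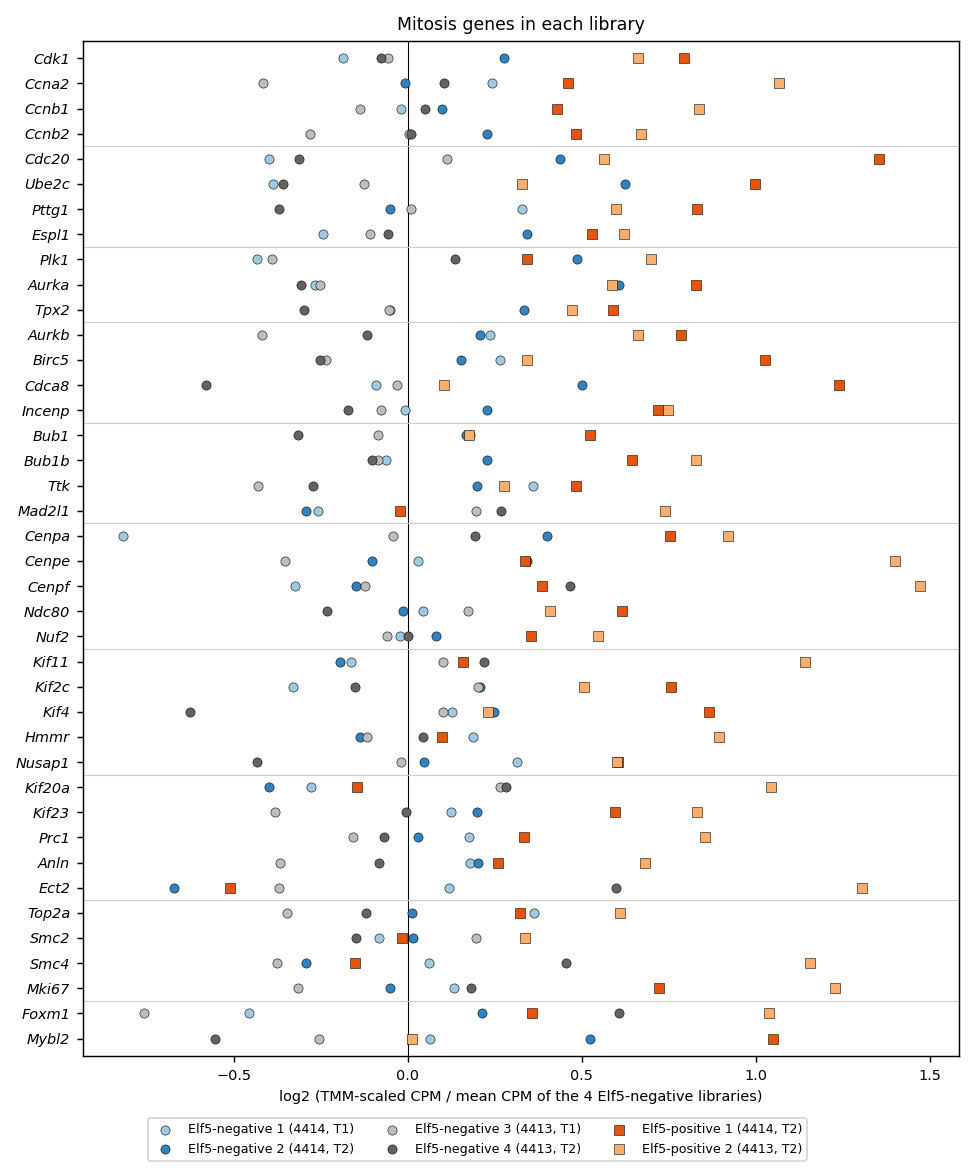
Level of each mitosis gene in each library as the log2 of its TMM-scaled CPM over the mean of the 4 Elf5-negative libraries; circles are Elf5-negative and squares Elf5-positive libraries, and the key gives title number and T code. The highest value of every gene was a square, Elf5-positive library 1 in 16 genes and library 2 in 24, and the squares clear all circles in 21 of 40 genes.

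Within the T2 pairs, where a positive and a negative library share number and code, the difference was in the same direction in nearly every gene with TMM scaling and in the opposite direction in all 40 with epithelial scaling. In pair 1 the ratio of Elf5-positive to Elf5-negative library, on a log2 scale with a prior count of 2, was above 0 for 38 of 40 mitosis genes, with a median of 0.35 and a range of -0.14 to 0.91. In pair 2 it was above 0 for all 40, with a median of 0.75 and a range of 0.43 to 1.06. The medians of all genes were -0.02 and 0.02, and 34.9% of all genes were higher in both pairs, against 38 of 40 mitosis genes. The exceptions were Plk1 and Smc2, at -0.14 and -0.03 in pair 1. In 37 of 40 genes the ratio was larger in pair 2, against 51.3% of all genes. The exceptions were Cdc20, Birc5 and Cdca8. All genes of a pair come from the same libraries, so these counts are not independent observations and carry no test. An interaction term in edgeR with all 6 libraries asked whether the difference between the sorts differed between the title numbers. It called 0 of 40 (smallest adjusted p = 1) and 6 of all genes, and 0 of 40 had an unadjusted p below 0.05. That fit takes T1 and T2 Elf5-negative libraries of a number together, so it does not test the ratios within the T2 pairs. With so few libraries it cannot show that the pairs are alike.

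Each pair has 1 library a side, so it carries no test of its own. Both pairs together, fitted with the title number as a block in edgeR, called 8 of 40 mitosis genes higher and 0 lower, against 2.83% of all genes higher. They were Pttg1, Cdc20, Cdca8, Mki67, Kif4, Birc5, Aurkb and Ndc80, with log2 fold changes from 0.64 to 0.93 and adjusted p from 0.0241 to 0.0490. This fit has a single residual degree of freedom, and with the block on all 6 libraries 0 of 40 passed. When the positive library of one pair was set against the negative library of the other, the genes scattered more. Elf5-positive library 1 over Elf5-negative library 4 gave 32 of 40 above 0 (range -1.11 to 1.82), and Elf5-positive library 2 over Elf5-negative library 2 gave 35 of 40 (range -0.51 to 1.98).

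**Figure D4:**
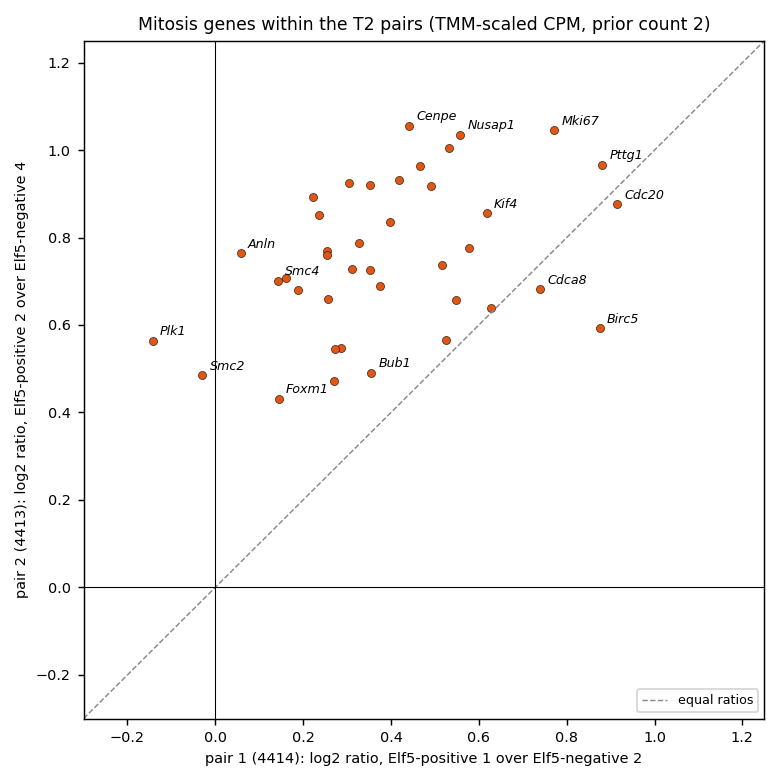
Log2 ratio of Elf5-positive over Elf5-negative library for each of the 40 mitosis genes in pair 1 (x axis) and pair 2 (y axis), TMM-scaled with a prior count of 2; the dashed line marks equal ratios. All points lie above 0 on the y axis and 38 on the x axis, and 37 lie above the dashed line. With epithelial scaling all 40 ratios would lie below 0 in both pairs.

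Several members differed more between the Elf5-positive libraries than between the sorts. This was so in 12 of 40 genes. The share over all genes is not given for this count, so it cannot be called particular to mitosis genes. In 27 of 40 genes the pair 2 library differed from the pair 1 library in the same direction in both sorts, a share below the 76.1% of all genes that did so. With the T1 libraries included, 4 genes were higher with the number of pair 2 throughout and 9 with that of pair 1, against 18.4% and 19.3% of all genes. Ect2 showed the widest gap, at 251.7 and 154.1 CPM in pair 2 and 71.5 and 63.9 CPM in pair 1. Smc4 was likewise higher in pair 2, at 763.3 and 469.5 CPM against 308.8 and 279.9 CPM, and so was Kif20a, at 244.6 and 144.5 CPM against 107.4 and 90.0 CPM. The reverse held for Mybl2, at 146.5 and 101.8 CPM in pair 1 against 71.4 and 48.2 CPM in pair 2, and for Cdca8, at 180.6 and 108.2 CPM against 82.2 and 51.2 CPM. In 3 of these 5 genes the T1 libraries went the other way from the T2 libraries of their number. Elf5-negative library 1, with the number of pair 1, was above library 3 in Ect2 and Smc4, and just below it in Cdca8 (71.8 against 74.9 CPM). Leaving out 1 Elf5-positive library moved values by over 1.5 times in both directions. The counts that follow are likewise for the mitosis genes only, with no share over all genes beside them. The log2 fold change was larger by that much in 7 genes without library 1 and in 2 genes without library 2. Without library 1 the log2 fold change was smaller by that much in 7 genes, namely Mybl2 (0.0087), Cdca8 (0.10), Bub1 (0.17), Kif4 (0.23), Ube2c (0.33), Birc5 (0.34) and Cdc20 (0.56). Without library 2 it was in 15, of which 10 stayed above 0, namely Hmmr (0.10), Kif11 (0.16), Anln (0.26), Prc1 (0.33), Plk1 (0.34), Cenpe (0.34), Foxm1 (0.36), Cenpf (0.39), Ccnb1 (0.43) and Ccna2 (0.46). The values were below 0 in the other 5, namely Ect2 (-0.51), Kif20a (-0.15), Smc4 (-0.15), Mad2l1 (-0.023) and Smc2 (-0.019).

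Other cell cycle genes gave the mitosis genes their setting, again with TMM scaling. Among all genes tested with edgeR, 0.585% passed as higher and 3.79% as lower. Log2 fold changes were above 0 in 53.3% of them, and 5.20% were higher at an unadjusted edgeR p below 0.05. Of 50 further mitosis genes 1 passed as higher and 0 as lower (edgeR), 48 were above 0, and their median was 0.56. The one that passed was Fbxo5, which encodes the anaphase-promoting complex inhibitor Emi1 (49.0 and 53.4 CPM against 25.4, 29.0, 22.5 and 24.8 CPM; log2 fold change 1.01, SE 0.21, adjusted p = 0.0387). It did not pass with epithelial scaling, where 0 of the 50 passed as higher and 28 as lower, beside 60.6% of all genes as lower. The next by p were Cdca3 and Kif22, at 0.79 each (adjusted p = 0.0869 and 0.0970). Of 30 G1/S and DNA replication genes 0 passed, 8 had an unadjusted p below 0.05, all 30 were above 0 and the median was 0.49, with Prim1, Mcm5 and Gins1 at 0.71, 0.69 and 0.69. Summed mitosis genes over summed G1/S genes came to 1.08 and 1.26 in the Elf5-positive libraries and to 1.29, 1.01, 0.974 and 0.993 in the Elf5-negative ones, so the sorts overlapped through Elf5-negative library 1, a T1 library. Within each T2 pair the ratio was higher in the Elf5-positive library. With epithelial scaling the medians were -0.99 for the further mitosis genes, -1.05 for the G1/S genes and -1.49 for all genes. Of the 30 G1/S genes 21 then passed as lower, beside the 60.6% of all genes that did.

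A list of 14 regulators of mitotic promoters holds genes of the DREAM complex and its MuvB core. It also holds Rb1, Mybl1 and the NF-Y genes Nfya, Nfyb and Nfyc. The 14 genes had a median of 0.30 and none passed in edgeR, with 0 at an unadjusted p below 0.05. E2f5, Lin9 and Lin37 had the smallest p, with log2 fold changes of 0.59, 0.47 and 0.56. With epithelial scaling the median of the 14 genes was -1.24, and 12 of them passed as lower, beside 60.6% of all genes. Of 12 G1 cyclins and Cdk inhibitors 1 passed, as lower (3.79% of all genes did), and their median was -0.41. That gene was Ccnd2, a D-type cyclin, at 3.42 and 2.32 CPM against 34.3, 30.6, 47.9 and 15.6 CPM (log2 fold change -3.49, SE 0.51, edgeR adjusted p = 0.0137). The Cdk inhibitor Cdkn1c and the G1 kinase Cdk6 had log2 fold changes of -1.28 and -1.08 and did not pass. With epithelial scaling the median of these 12 genes was -1.97, and 11 of them passed as lower, beside 60.6% of all genes.

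Set beside the epithelial markers, the mitosis genes lost their separation. The summed mitosis genes divided by the summed epithelial markers gave 0.712 and 1.22 in the Elf5-positive libraries and 2.05, 1.60, 1.03 and 1.75 in the Elf5-negative ones, so the ratio was lower in Elf5-positive library 1 than in every Elf5-negative library, while library 2 lay within their range. From negative to positive libraries the mean epithelial sum changed by a ratio of 2.64 and the mitosis sum by 1.59. Within pair 1 these ratios were 2.98 and 1.32, and within pair 2 they were 2.46 and 1.72.

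**Figure D5:**
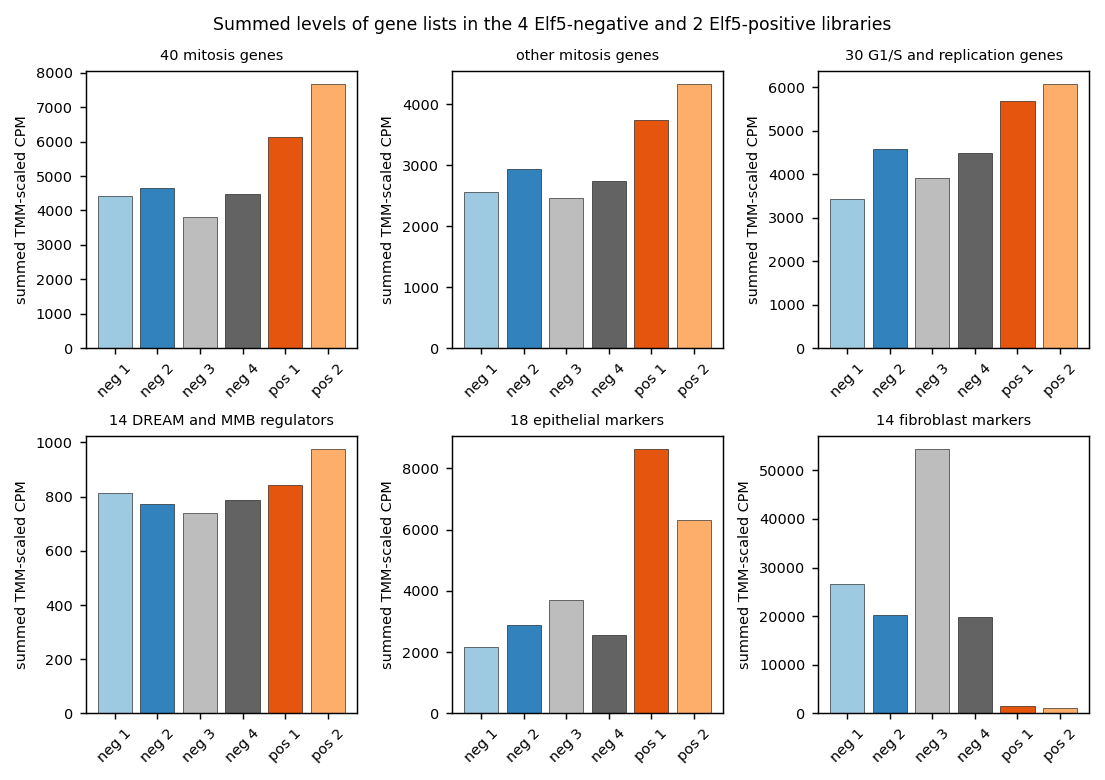
Summed TMM-scaled CPM of 6 gene lists in Elf5-negative libraries 1 to 4 (neg) and Elf5-positive libraries 1 and 2 (pos), 1 bar a library, each panel with its own y axis from 0. Mitosis genes stood at 6137 and 7676 CPM in the Elf5-positive libraries against 3821 to 4646 CPM, while fibroblast markers stood at 1590 and 1163 CPM against 19790 to 54350 CPM.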

How the data were processed

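The authors deposited 1 table of estimated counts (expected counts), whole numbers for 52325 Ensembl genes in 6 libraries, which come from Salmon and build GRCm38.p5, as the submitters' processing notes name them. Which Salmon version, gene annotation and transcript summing were used is not given in the sources used here. Salmon divides reads between similar transcripts by a model, which leaves genes that have close copies uncertain. Symbols matched for 52220 identifiers, and 77 with a duplicated symbol kept their identifier as name. Coordinates and exon lengths came from GENCODE M21 (GRCm38) and promoters from RefSeq (GRCm38.p6).

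Genes were filtered with filterByExpr by group, scaled with TMM factors and tested with edgeR 4.0.16 (quasi-likelihood, no block, all 6 libraries, Benjamini-Hochberg adjusted p below 0.05 over 20684 genes) in R 4.3.3; the standard error is the log2 fold change over the root of F. The alternatives used DESeq2 1.42.0, limma 3.58.1 (voom), other factors and filters, scaling to the geometric mean of 18 epithelial markers, title-number blocks, T2 libraries only, thinning and each library left out. Leaving out Elf5-negative libraries 1 and 2 together was chosen after seeing the data. These 2 libraries had the highest skeletal muscle sums, at 222.8 and 44.9 CPM against 5.35 to 14.4 CPM in the others. Totals ran from 9106660 to 53694884 counts. The test was tried on simulated counts. The 40 members, the lists and the tests were chosen with earlier results of these data known. Values by library are given for members that passed any alternative and for the extremes and the most abundant of each role, and of each other list the 3 genes with the smallest p are named. Figures used Python 3.11.15 with matplotlib 3.10.9.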

Additional observations from a re-analysis of the deposited data

Results flagged for a closer look

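In 2 of 40 mitosis genes Elf5-negative library 2 stood far above the other 3 Elf5-negative libraries, measured by its gap to the nearest over the whole range; chance flags about 1 in 20 such groups. Aurka was at 66.9 CPM there (gap over range 0.956), and Bub1b at 106.3 CPM (0.887). In 2 genes the T2 pairs went opposite ways, with log2 ratios of -0.14 and 0.56 for Plk1 and -0.029 and 0.49 for Smc2 in pairs 1 and 2. The interaction test between title numbers, which takes T1 and T2 Elf5-negative libraries together and so does not test these pair ratios, passed for neither.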

How the results depend on the processing

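With TMM, other normalization factors, other filters, robust dispersions, thinning and limma-voom, 0 mitosis genes passed in either direction. With each library left out in turn 0 passed as well, and the median log2 fold change ran from 0.52 to 0.70. DESeq2 called 4 higher, and why it called more than edgeR was not tested. The T2 fit with the replicate block called 8 higher and the T2 fit without it 0. Those fits used the same libraries and differed only in the block. The title number is not defined as an animal or tumour. Over the 13769 genes whose average log2 CPM reached 1, the deviations of same-numbered T2 libraries from their group means had a correlation of 0.75, and with the replicate block on all 6 libraries 0 passed and the median was 0.63. Without Elf5-negative libraries 1 and 2 the median was 0.75 and 0 passed. Without Elf5-positive library 1, 7 genes had a log2 fold change over 1.5 times smaller, down to 0.0087 (Mybl2) and 0.10 (Cdca8), and 7 had a larger one by that much. Without library 2, 15 had a smaller one, of which 5 were negative, and 2 a larger one. Over the libraries left out Mad2l1 ran from -0.023 to 0.74, Kif20a from -0.15 to 1.04, Ect2 from -0.51 to 1.31, Smc2 from -0.019 to 0.34 and Smc4 from -0.15 to 1.16. Scaling to epithelial markers, which by construction sets those genes near 0, moved the median of all genes from 0.05 to -1.49. It reversed the members' median to -0.88, with 16 called lower, and the pair medians to -1.33 and -0.70, with 0 members higher in pair 1 and 0 in pair 2. The log2 fold changes then were -0.82 (Cdk1), -0.76 (Ccna2), -0.88 (Ccnb1), -0.97 (Ccnb2), -0.54 (Cdc20), -0.86 (Ube2c), -0.85 (Pttg1), -0.96 (Espl1), -0.995 (Plk1), -0.84 (Aurka), -1.02 (Tpx2), -0.86 (Aurkb), -0.88 (Birc5), -0.81 (Cdca8), -0.81 (Incenp), -1.22 (Bub1), -0.80 (Bub1b), -1.21 (Ttk), -1.08 (Mad2l1), -0.67 (Cenpa), -0.55 (Cenpe), -0.46 (Cenpf), -1.03 (Ndc80), -1.08 (Nuf2), -0.76 (Kif11), -0.89 (Kif2c), -0.99 (Kif4), -0.97 (Hmmr), -0.96 (Nusap1), -0.90 (Kif20a), -0.84 (Kif23), -0.92 (Prc1), -1.07 (Anln), -0.83 (Ect2), -1.10 (Top2a), -1.34 (Smc2), -0.87 (Smc4), -0.55 (Mki67), -0.79 (Foxm1) and -0.99 (Mybl2). Calls over all genes, 121 higher and 783 lower, were 0 and 0 with T2 libraries only, 549 and 1368 with T2 and the block, 252 and 1011 with the block on all libraries, 436 and 1763 with DESeq2, 273 and 1331 with no filter, 16 and 12531 with epithelial scaling, 0 and 75 without Elf5-negative libraries 1 and 2, and 25 to 133 and 197 to 811 with 1 library left out. The prior count changed no pair result beyond the spread between libraries. The lowest count of a mitosis gene in any library was 260, and the median with counts thinned to the smallest library was 0.65.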
